A study of Mus musculus with 8 samples.

Results

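Transcripts of vascular mural cells, the pericytes and smooth muscle cells that wrap the walls of blood vessels, were followed in microglial RNA from mouse brain. The 10 genes, of 51810 in the table, were taken by symbol, and all 10 were found and passed the filter on low counts. Rgs5, Vtn, Kcnj8, Abcc9 and Ndufa4l2 were treated as pericyte genes, Acta2, Tagln and Myh11 as contractile smooth muscle genes, and the receptor genes Pdgfrb and Notch3 as shared by both cell types. The libraries form 4 groups of 2: white matter at 21 months, grey matter at 21 months, white matter at 4 months and grey matter at 4 months. All came from wild-type mice with no other treatment named. White matter was dissected as the corpus callosum, and the region label reads corpus callosum for the grey matter libraries too. Myelin was removed on a Percoll gradient and the cells were drawn out with CD11b microbeads, which bind microglia along with further cells of the myeloid lineage, so mural transcripts were not the target of the selection. The labels do not say whether a group's libraries stem from different mice, so p-values reflect only how far these libraries scatter, which may be technical.

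Pericytes sit on capillaries within the vascular basement membrane and help to keep the blood-brain barrier, while smooth muscle cells ring arteries and arterioles and set their diameter by contraction. Endothelial cells recruit both by releasing PDGF-B, which binds the receptor encoded by Pdgfrb, and Notch3 signalling keeps the smooth muscle cells mature. Brain pericytes carry an ATP-sensitive potassium channel built from the products of Kcnj8 and Abcc9, whereas contractile smooth muscle is marked by alpha-actin and smooth muscle myosin. In bulk RNA, fewer cells of a type and less RNA per cell cannot be told apart, which holds for every level given here.

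Library totals ran from 3273258 to 6315782 counts. Levels are in CPM, a gene's counts relative to its library's total as scaled by edgeR's TMM method. The microglia list of 12 genes, P2ry12, Tmem119 and Cx3cr1 among them, summed to between 13598 and 20120 CPM in 7 libraries, and none of its genes was at 0 in any library. In the first 4-month white matter library that sum was 3291 CPM. The same library held 63569 CPM of 10 oligodendrocyte genes, against 199 to 796 CPM in the other 7, and it stood apart from them. Results that rest on it are given both ways, with that library and with it left out. All 10 mural genes were lowest in it, with at most 10 counts each. A count of 0 there allows a level of up to 1.09 CPM, taking 3 counts as the limit and covering counting error only.

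Of the shared receptors, Pdgfrb had 36.9 and 55.1 CPM in 21-month white matter, 67.9 and 75.4 CPM in 21-month grey matter, 0 and 44.7 CPM in 4-month white matter, and 10.8 and 41.7 CPM in 4-month grey matter. Its 21-month grey matter libraries lay above all 6 others, and the 21-month and 4-month white matter libraries overlapped. Notch3, whose product is the Notch receptor of smooth muscle cells and pericytes, had 37.4 and 65.8 CPM in 21-month white matter and 66.8 and 76.5 CPM in 21-month grey matter. At 4 months it had 3.63 and 27.6 CPM in white matter and 4.71 and 50.5 CPM in grey matter. Within each region its 21-month libraries lay above its 4-month libraries, but the 50.5 CPM of one 4-month grey matter library exceeded the 37.4 CPM of one 21-month white matter library. Group means of Pdgfrb were 46 ± 12.9 CPM in 21-month white matter, 71.7 ± 5.25 CPM in 21-month grey matter, 22.3 ± 31.6 CPM in 4-month white matter and 26.2 ± 21.8 CPM in 4-month grey matter (SD, n = 2 each).

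Among the pericyte genes, Rgs5, which encodes a regulator of G-protein signalling, was the most abundant. It had 274 and 474 CPM in 21-month white matter, 444 and 526 CPM in 21-month grey matter, 3.63 and 271 CPM in 4-month white matter, and 63.7 and 376 CPM in 4-month grey matter. Within each region its 21-month libraries lay above its 4-month libraries, but the 274 CPM of one 21-month white matter library lay below the 376 CPM of one 4-month grey matter library. Vtn, the gene of the matrix protein vitronectin, had 121 and 143 CPM in 21-month white matter, 156 and 198 CPM in 21-month grey matter, 1.45 and 81.8 CPM in 4-month white matter, and 39.6 and 70.2 CPM in 4-month grey matter. All 4 of its 21-month libraries were higher than all 4 of its 4-month libraries.

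The channel genes showed the same separation by age. Kcnj8, which encodes the pore subunit Kir6.1, had 18.4 and 19.4 CPM in 21-month white matter, 21 and 27.9 CPM in 21-month grey matter, 0.363 and 10.5 CPM in 4-month white matter, and 5.58 and 10.2 CPM in 4-month grey matter. Abcc9, which encodes the regulatory subunit SUR2, had 71.2 and 77 CPM in 21-month white matter, and 108 CPM in both 21-month grey matter libraries. Its 4-month libraries had 1.09 and 53.7 CPM in white matter and 13.3 and 48.1 CPM in grey matter. For both genes the order of the groups by library was 21-month grey matter, then 21-month white matter, then all 4-month libraries. The CPM of Abcc9 was 3.86 and 3.97 times that of Kcnj8 for 21-month white matter, 5.16 and 3.86 times for 21-month grey matter, 3 and 5.1 times for 4-month white matter, and 2.38 and 4.7 times for 4-month grey matter, with overlap between all groups. Ndufa4l2, a low-abundance relative of a mitochondrial respiratory chain subunit gene, had 4.97 and 5.96 CPM in 21-month white matter, 7.33 and 7.54 CPM in 21-month grey matter, 0.727 and 2.01 CPM in 4-month white matter, and 2.27 and 4.21 CPM in 4-month grey matter.

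Among the contractile genes, Acta2 and Myh11 differed by a larger ratio between the 2 libraries of 21-month white matter than any pericyte gene did. Acta2, the gene of smooth muscle alpha-actin, had 85.6 and 239 CPM in 21-month white matter, 109 and 146 CPM in 21-month grey matter, 2.18 and 48.4 CPM in 4-month white matter, and 5.41 and 143 CPM in 4-month grey matter. Myh11, the smooth muscle myosin heavy chain gene, had 96.3 and 302 CPM in 21-month white matter, 130 and 160 CPM in 21-month grey matter, 0 and 51.4 CPM in 4-month white matter, and 1.92 and 201 CPM in 4-month grey matter. For both genes the highest library was the second of 21-month white matter, and the second 4-month grey matter library fell inside the range of the 21-month libraries. Tagln, which encodes the actin-binding protein transgelin, had 6.15 and 7.7 CPM in 21-month white matter, 10.5 and 7.82 CPM in 21-month grey matter, 0 and 3.26 CPM in 4-month white matter, and 2.62 and 8.41 CPM in 4-month grey matter. Beta-actin, Actb, had 11139 counts in the library with 6 counts of Acta2 and 39628 counts in the library with 31. In these 2 libraries Acta1 had 14 and 52 counts, Actc1 2 and 6, Actg2 0 and 11, and Actg1 679 and 2132. The part of reads from related actin genes in the level of Acta2 was not tested.

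**Figure D1:**
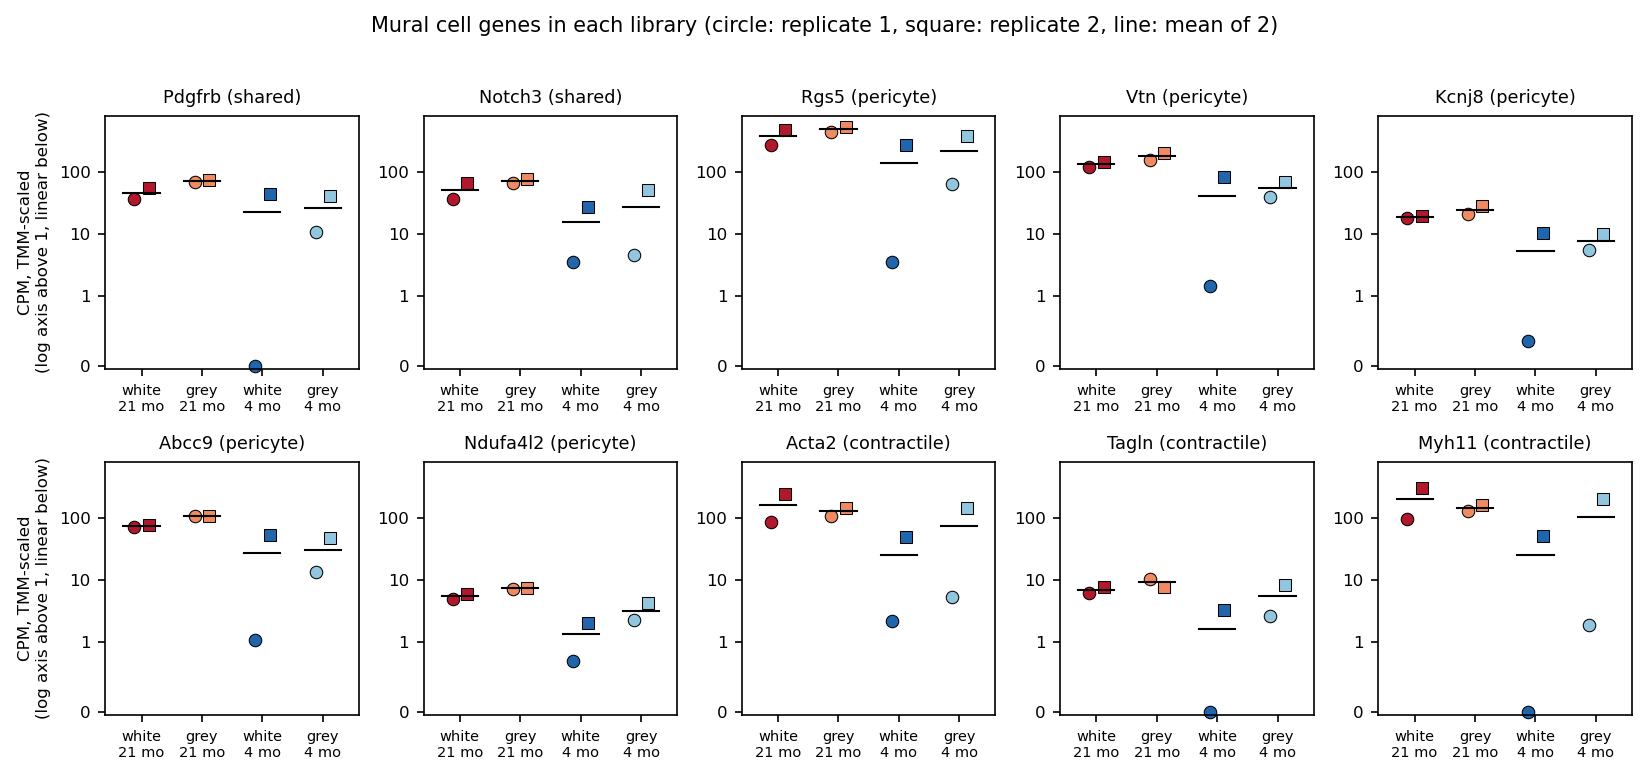
Level of each mural gene in each library, in TMM-scaled CPM on an axis that is logarithmic above 1 and linear below; circles are replicate 1, squares replicate 2 and lines the mean of 2. Vtn, Kcnj8, Abcc9 and Ndufa4l2 are higher in all 4 libraries of 21 months than in all 4 of 4 months, and the first 4-month white matter library is the lowest for every gene.

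The start regions of Acta2 and Rgs5, the contractile and the pericyte gene with the highest level per kilobase of exon, are shown because CArG boxes, the sites bound by serum response factor, are a known feature of smooth muscle promoters. The sequences are the 250 bases before the start site in RefSeq, build GRCm38.p6, with CArG-like boxes in capitals. A CArG-like box was read as CC, then 6 bases of which at most 1 is C or G and the others A or T, then GG. A strict box allowed no C or G among the 6. Only the strand shown was searched, and the pattern matches the same sites on the other strand.

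Acta2, chr19:34255374-34255623, minus strand: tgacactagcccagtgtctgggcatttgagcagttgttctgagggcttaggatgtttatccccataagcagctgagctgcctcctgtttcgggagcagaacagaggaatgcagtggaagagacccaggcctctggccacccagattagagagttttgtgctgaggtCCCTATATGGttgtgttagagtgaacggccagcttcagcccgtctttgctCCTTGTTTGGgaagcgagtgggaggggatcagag
Rgs5, chr1:169655251-169655500, plus strand: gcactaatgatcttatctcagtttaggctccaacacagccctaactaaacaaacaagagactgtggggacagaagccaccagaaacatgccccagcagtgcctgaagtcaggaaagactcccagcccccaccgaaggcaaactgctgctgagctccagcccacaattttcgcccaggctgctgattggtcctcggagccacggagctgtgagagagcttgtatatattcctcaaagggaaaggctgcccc

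Acta2 held 2 CArG-like boxes, which begin 84 and 34 bases before the start site. Rgs5, Vtn, Kcnj8, Abcc9 and Notch3 held none in windows of the same length. No strict box was found in these 6 promoters. No promoter sequence was found for Tagln, Myh11 and Ndufa4l2, and Pdgfrb was left out of the search. Acta2 was thus the only contractile gene among the 6 examined. Of 32851 promoters in the table, 8.59% held a CArG-like box and 1.47% a strict one. A match of letters is a description of these windows, and binding was not measured.

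Per kilobase of exon, using merged exons of GENCODE M21, the order of levels over the 4 libraries of 21 months was Rgs5, Vtn, Acta2, Myh11, Pdgfrb, Abcc9, Notch3, Kcnj8, Ndufa4l2 and Tagln. Median levels were 101 CPM per kilobase for Rgs5 (60.4 to 116), 73.7 for Vtn (59.5 to 97.3), 58 for Acta2 (39 to 109) and 19.1 for Myh11 (12.7 to 39.7). The other 6 genes had medians between 3.9 and 11.2 CPM per kilobase. Each gene's range overlapped that of the next in this order, except that Kcnj8, at 7.24 to 11, lay above Ndufa4l2, at 4.54 to 6.88. The annotation used for the deposited counts is not given in the sources used here, and this order holds for that set of exons only. Tagln was the lowest, at 3.9 (3.09 to 5.28). In that annotation 62.4% of the exon bases of Tagln are overlapped by Gm48529 and 5.43% by Pcsk7, both on the opposite strand. Pcsk7 had 14.5 to 31.8 CPM. At a tolerance of 0.01, counts were not whole in 7 libraries for Tagln, 6 for Abcc9 and 5 for Notch3. Opposite-strand genes overlap 1.89% of the exon bases of Abcc9 and 6.03% of those of Notch3. Whether reads were counted by strand is not given in the sources used here. The part of these overlaps in the levels of these genes was not tested.

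Summed levels set the contractile genes against the pericyte genes. The 3 contractile genes summed to 188 and 548 CPM in 21-month white matter, 249 and 314 CPM in 21-month grey matter, 2.18 and 103 CPM in 4-month white matter, and 9.94 and 352 CPM in 4-month grey matter. The 5 pericyte genes summed to 490 and 719 CPM in 21-month white matter, 737 and 867 CPM in 21-month grey matter, 7.27 and 419 CPM in 4-month white matter, and 124 and 508 CPM in 4-month grey matter. Contractile sums were below pericyte sums in all 8 libraries. The sums are of 3 and 5 genes and are not scaled by exon length, so this order depends on the genes chosen.

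The contractile sum was 0.384 and 0.763 of the pericyte sum in 21-month white matter, 0.338 and 0.362 of it for 21-month grey matter, 0.3 and 0.246 of it for 4-month white matter, and 0.0799 and 0.693 of it for 4-month grey matter. The libraries with the most contractile RNA relative to pericyte RNA were thus the second of 21-month white matter and the second of 4-month grey matter. The library with the least was the first of 4-month grey matter, with 57 contractile counts beside 713 pericyte counts. The 0.3 of the first 4-month white matter library rests on 6 contractile and 20 pericyte counts.

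On the log2 scale, with 1 CPM added to each sum, the ratio averaged -0.88 ± 0.698 for 21-month white matter, -1.51 ± 0.0703 for 21-month grey matter, -1.7 ± 0.449 for 4-month white matter and -2.02 ± 2.11 for 4-month grey matter (SD, n = 2 each). White minus grey matter gave 0.63 at 21 months and 0.33 at 4 months, beside pooled replicate SDs of 0.496 and 1.53. The 21-month minus 4-month difference was 0.81 in white matter and 0.51 in grey matter, beside pooled SDs of 0.587 and 1.5. The differences at 4 months and in grey matter are smaller than their replicate SD. The other two exceed theirs, and the 2 libraries of 21-month white matter alone span more than either of those differences. With 1 library left out at a time, the difference at 21 months ran from 0.13 without the second 21-month white matter library to 1.12 without the first. At 4 months it ran from -1.17 without the first grey matter library to 1.82 without the second, and it was 0.01 without the first white matter library. The aging difference in white matter ran from 0.32 without the second 21-month library to 1.31 without the first, and was 1.13 without the first 4-month library. In grey matter it ran from -0.98 without the first 4-month library to 2.01 without the second, so its sign rests on 1 library. No test was made of these sums.

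**Figure D2:**
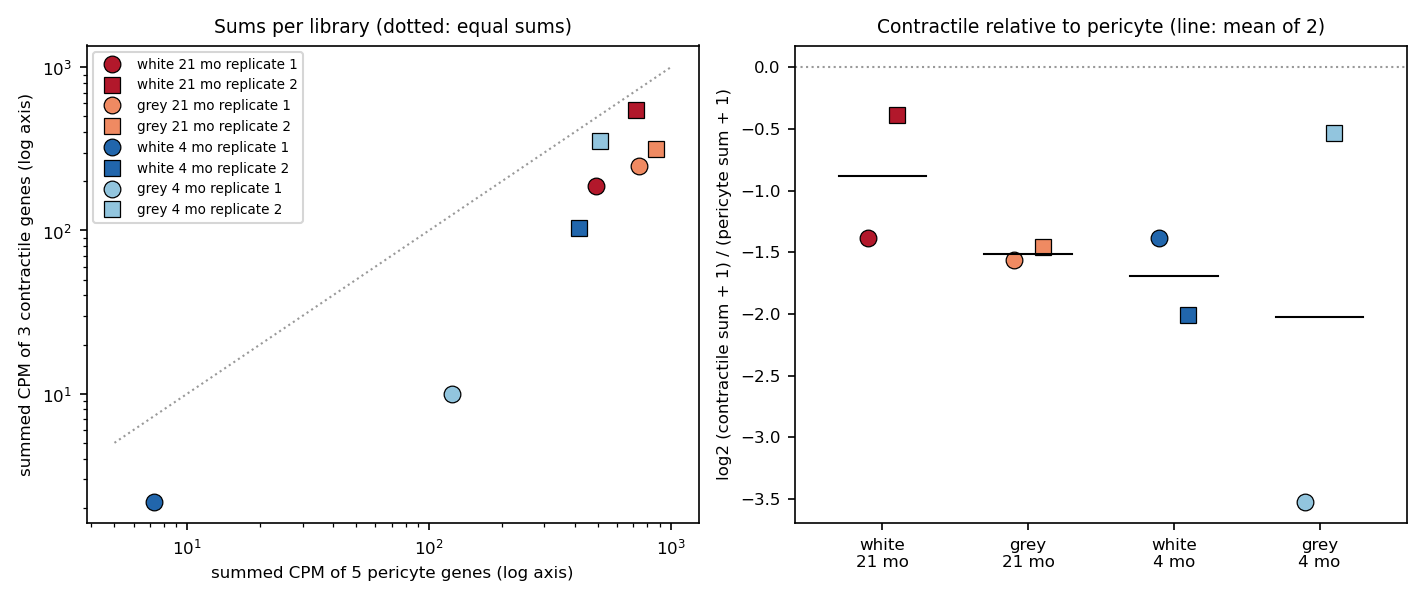
Left, summed CPM of the 3 contractile genes against that of the 5 pericyte genes in each library, both axes logarithmic, with equal sums dotted; right, the log2 ratio of the sums by group, with lines at the mean of 2. All 8 libraries lie below equality, and the first and second 4-month grey matter libraries lie at -3.52 and -0.53, farther apart than the means of any groups.

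Composition within each set was also compared. Rgs5 made up 56% and 65.9% of the pericyte sum in 21-month white matter, 60.2% and 60.7% for 21-month grey matter, 50% and 64.7% for 4-month white matter, and 51.2% and 73.9% for 4-month grey matter. Myh11 stood at 1.12 and 1.26 times Acta2 in CPM in 21-month white matter, 1.2 and 1.1 times in 21-month grey matter, and 1.06 and 1.41 times in the second libraries of 4-month white and grey matter. In the first 4-month grey matter library it stood at 0.355 times Acta2, with 11 counts of Myh11 beside 31 of Acta2. Across all 8 libraries, Pearson's r of log2 CPM had a median of 0.976 over the 10 pairs of pericyte genes, 0.923 over the 3 pairs of contractile genes and 0.931 over the 15 pairs across the sets. Without the first 4-month white matter library the medians were 0.873, 0.849 and 0.802. The libraries share groups and depth, so these values describe them only.

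At 21 months, the pericyte genes and receptors had lower mean levels in white matter than in grey matter, while Acta2 and Myh11 did not. Of the 10 genes, 7 had both white matter libraries below both grey matter libraries: Pdgfrb, Notch3, Vtn, Kcnj8, Abcc9, Ndufa4l2 and Tagln. Among all 16237 genes tested, 19.5% separated in that direction. The log2 fold changes of white over grey matter were -0.64 ± 1.41 for Pdgfrb, -0.54 ± 1.2 for Abcc9 and -0.43 ± 1.19 for Vtn, and 0.35 ± 1.48 for Acta2 and 0.45 ± 1.93 for Myh11 (± SE, n = 2 each). All 10 had an adjusted p of 1 by edgeR's quasi-likelihood test. Their median was -0.42, against 0.02 over all genes. The signs of Acta2 and Myh11 rest on 1 library: without the second 21-month white matter library they were -0.57 and -0.59.

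In that comparison edgeR called none of the 16237 genes at an adjusted p under 0.05 (0%), and 2.35% had an unadjusted p under 0.05, none of the 10 among them. Fitted to the 21-month libraries alone, where the spread between replicates was smaller, edgeR called 232 of 14717 genes (1.58%), again with none of the 10. On simulated data this fit made more false calls than its threshold allows, so its calls may be too many and its adjusted p-values too small. Abcc9 came nearest, at -0.55 (adjusted p = 0.159 by edgeR), then Pdgfrb at -0.65 (adjusted p = 0.238) and Vtn at -0.43 (adjusted p = 0.368), and Acta2 and Myh11 were at 0.34 and 0.44. The fit of the 7 libraries that remain without the first 4-month white matter library called 0.109% of 17509 genes and none of the 10.

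At 4 months, all 10 genes had log2 fold changes of white over grey matter below 0, between -1.96 for Myh11 and -0.15 for Abcc9, as did 49.3% of all genes. edgeR called none of the 10 (adjusted p from 0.686 to 0.986) and 0% of all genes, with 8.91% at an unadjusted p under 0.05, none of the 10 among them. Only Ndufa4l2 had both white matter libraries below both grey matter libraries, against 15.5% of all genes. Without the second 4-month grey matter library, 8 of the 10 lay above 0, with Acta2 at 2.23 and Myh11 at 3.74. The signs of these contractile genes at 4 months thus rest on 1 library. Without the first 4-month white matter library, 4 of the 5 pericyte genes turned to above 0, with Abcc9 at 0.81 ± 0.662 and Vtn at 0.59 ± 0.361. The 3 contractile genes stayed below 0 there, between -0.99 ± 2.12 for Myh11 and -0.62 ± 1.71 for Acta2. None of the 10 was called in that fit either.

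Between 21 and 4 months in white matter, log2 fold changes were above 0 for all 10 genes, as for 51.1% of all genes, with a median of 1.72 against 0.02. The contractile genes had the values 2.93 ± 2.08 for Myh11, 2.66 ± 1.58 for Acta2 and 1.98 ± 1.15 for Tagln, and the pericyte genes lay between 1.42 and 1.93. In 9 of the 10, all but Pdgfrb, both 21-month libraries were above both 4-month libraries, as in 19.8% of all genes. edgeR called none of them (adjusted p from 0.615 to 0.827) and 0% of all genes. Ndufa4l2, at 1.93 ± 0.713, was the only one of the 10 below 0.05 before adjustment (adjusted p = 0.615), beside 8.1% of all genes. Without the first 4-month white matter library the 10 values stayed above 0 and their median was 0.86, with Pdgfrb at 0.03, the pericyte genes between 0.44 and 1.42 and the contractile genes between 1.06 and 1.93. edgeR then called 1 of 17509 genes (0.00571%), none of the 10.

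In grey matter, all 10 log2 fold changes of 21 over 4 months were again above 0, as for 48.6% of all genes, with a median of 1.28 against -0.02. Here the pericyte genes had the larger values: 1.82 ± 1.24 for Abcc9, 1.69 ± 1.22 for Vtn, 1.62 ± 0.985 for Kcnj8, 1.19 ± 0.656 for Ndufa4l2 and 1.14 ± 1.47 for Rgs5, against 0.78 ± 1.48 for Acta2, 0.73 ± 1.05 for Tagln and 0.52 ± 1.93 for Myh11. All 5 pericyte genes and both receptors had both 21-month libraries above both 4-month libraries, and none of the 3 contractile genes did, beside 17.2% of all genes. No gene was called by edgeR (0%, and all 10 at an adjusted p of 1), with 0.733% at an unadjusted p under 0.05, none of the 10 among them. Without the first 4-month white matter library all 10 stayed above 0 and their SEs were smaller. Vtn was then at 1.69 ± 0.304, Kcnj8 at 1.62 ± 0.389 and Abcc9 at 1.81 ± 0.561, against 0.76 ± 1.34 for Acta2 and 0.5 ± 1.64 for Myh11. The SEs thus depend on a library outside this comparison. The first 4-month grey matter library was the lower of its pair for all 10 genes. It held 26116 CPM of 8 red cell genes, against 185 to 6946 CPM in the other 7 libraries, and the part of this in the results was not tested. Without that library, Acta2 and Myh11 had values of -0.17 and -0.48 and Tagln 0.12, while the pericyte genes stayed above 0, at 0.36 for Rgs5, 0.81 for Ndufa4l2, 1.16 for Abcc9, 1.25 for Kcnj8 and 1.33 for Vtn. When the second library of 4-month grey matter was dropped instead, the order of the sets turned for 2 genes, with 4.55 for Acta2 and 6.22 for Myh11, against 1.7 to 3.02 for the pericyte genes and 1.8 for Tagln, and none of the 10 was called. Which set had the larger aging values in grey matter thus rests on 1 library.

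**Figure D3:**
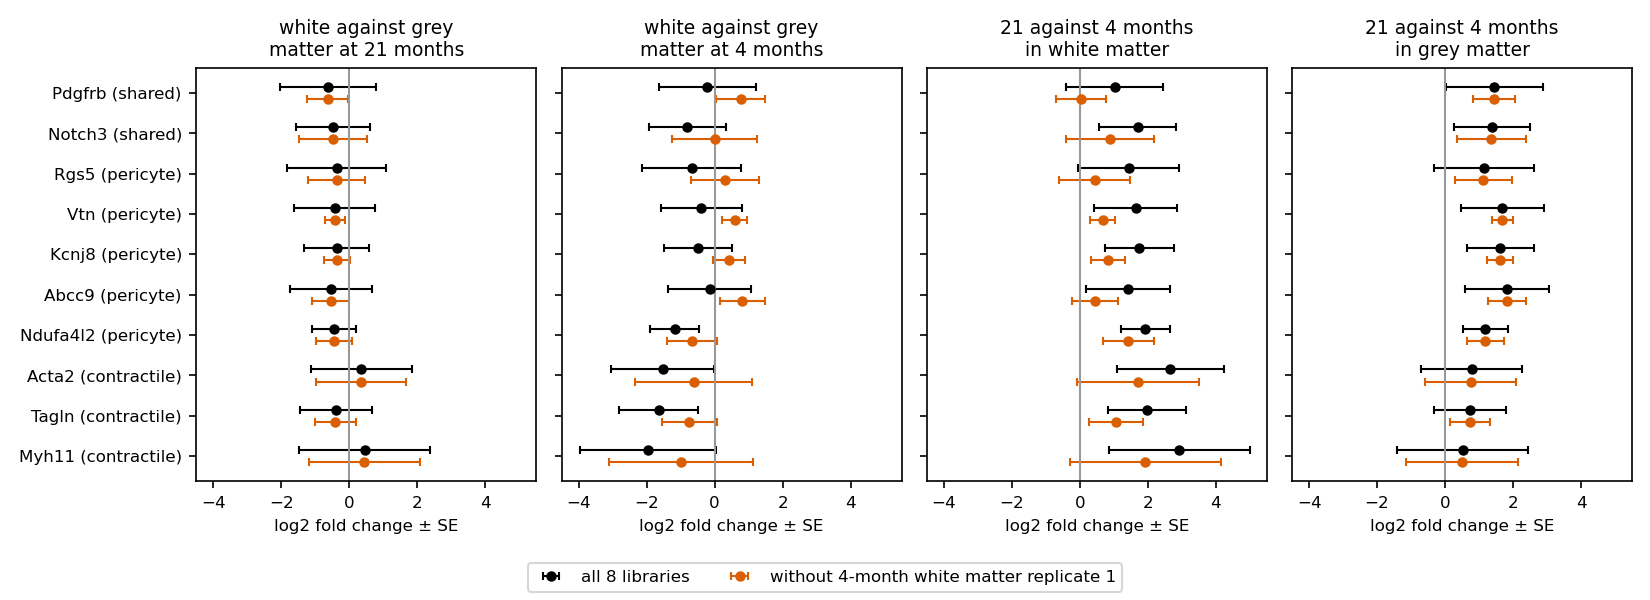
Log2 fold change ± SE of each mural gene in the 4 comparisons, from edgeR with all 8 libraries (black) and from the 7 libraries that remain without the first of 4-month white matter (orange). In grey matter Vtn, Kcnj8 and Abcc9 lie between 1.62 and 1.82, and in white matter leaving out that library lowers every aging value.

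Over both regions, Vtn, Kcnj8, Abcc9 and Ndufa4l2 were the genes for which every 21-month library exceeded every 4-month library, as 2.44% of all genes did. The same 4 genes separated without the first 4-month white matter library, beside 3.53% of all genes. Rgs5, both receptors and the 3 contractile genes did not separate. The aging change averaged over the regions was a contrast added after the values were seen. It was 1.56 ± 0.484 for Ndufa4l2, 1.69 ± 0.705 for Kcnj8, 1.67 ± 0.864 for Vtn and 1.62 ± 0.873 for Abcc9. Each had an adjusted p of 0.78 by edgeR. Before adjustment Ndufa4l2 and Kcnj8 were under 0.05, and Vtn and Abcc9 were not. In this contrast edgeR called 0% of all genes, and 5.36% had an unadjusted p under 0.05. Without the first 4-month white matter library it was 1.18 ± 0.246 for Vtn (adjusted p = 0.563), 1.23 ± 0.316 for Kcnj8 (adjusted p = 0.747), 1.13 ± 0.45 for Abcc9 and 1.31 ± 0.466 for Ndufa4l2 (adjusted p = 0.951 for both). In that fit these 4 had an unadjusted p under 0.05 by edgeR, as did 4.98% of all genes. The 4 were singled out because the same libraries separated by age. Low p-values for them are thus partly built in and add no separate test of aging.

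The difference between the regions in the aging change, white minus grey matter, was tested directly. It was 2.42 ± 2.77 for Myh11, 1.88 ± 2.11 for Acta2 and 1.25 ± 1.54 for Tagln, and between -0.40 for Abcc9 and 0.74 for Ndufa4l2 among the pericyte genes. All 10 had an adjusted p of 1 by edgeR, which called 0% of all genes, with 2.8% at an unadjusted p under 0.05 and none of the 10 among them. Without the first 4-month white matter library the 3 contractile genes stayed above 0, between 0.33 and 1.43, and 4 of the 5 pericyte genes lay below 0. Without the second 4-month grey matter library, Acta2 and Myh11 were at -1.88 and -3.28. Across all genes, DESeq2 called 54 and 508 in white against grey matter at 21 and 4 months, 363 and 0 between the ages in white and grey matter, and 17 in this difference. Neither DESeq2 nor limma called any of the 10.

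Other genes of the same cell types and pathways, from lists made with earlier results known, were set beside the 10. Of 20 other pericyte genes, all tested, 19 were above 0 between 21 and 4 months in white matter (median 1.23) and 20 in grey matter (median 1.38). Of 20 other contractile genes, 19 were tested, of which 18 were above 0 in white matter (median 1.96) and 19 in grey matter (median 1.08). In white over grey matter at 21 months, 5 of the 20 pericyte genes and 10 of the 19 contractile genes were above 0 (medians -0.21 and 0.07), and at 4 months 7 and 2 were (medians -0.33 and -1.10). None was called by edgeR in these comparisons. With the first library of 4-month white matter set aside, 17 of 20 pericyte and 20 of 20 contractile genes were above 0 for aging in white matter (medians 0.61 and 1.12), and 16 and 5 of 20 for white over grey matter at 4 months (medians 0.43 and -0.45). By library, Cspg4, the gene of the proteoglycan NG2, had 44.5 and 85.2 CPM in 21-month white matter, 44.2 and 44.9 CPM in 21-month grey matter, 1.09 and 22.1 CPM in 4-month white matter, and 7.5 and 30.4 CPM in 4-month grey matter. Atp13a5, a transporter gene marking brain pericytes, had 25.5 and 45.4 CPM in 21-month white matter, 53.9 and 75.1 CPM in 21-month grey matter, 0.727 and 32.1 CPM in 4-month white matter, and 6.28 and 28.5 CPM in 4-month grey matter. At 21 months the white and grey matter libraries of Cspg4 overlapped, and those of Atp13a5 did not. Mcam, which encodes an adhesion molecule, had 132 CPM in the first 4-month white matter library and 3.14 to 35.8 CPM in the others, opposite to the 10 genes. Among the contractile genes, Mylk, the myosin light chain kinase gene, had 78.1 and 153 CPM in 21-month white matter, 87.3 and 112 CPM in 21-month grey matter, 0 and 50.7 CPM in 4-month white matter, and 2.62 and 99.8 CPM in 4-month grey matter. Its libraries stood in the same order as those of Acta2.

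Ligands, partners and relatives of the receptors had values in both directions. Of 16 genes of PDGF and Notch signalling, 14 were tested and none was called. Between 21 and 4 months 12 of the 14 were above 0 in white matter (median 0.74) and 7 in grey matter (median 0.00). With the first library of 4-month white matter left aside, 12 of 15 were above 0 in white matter, with a median of 0.44. Pdgfb, the ligand gene, had 201 and 135 CPM in 21-month white matter, 112 and 106 CPM in 21-month grey matter, 24 and 123 CPM in 4-month white matter, and 148 and 110 CPM in 4-month grey matter. Notch2 had 333 and 332 CPM in 21-month white matter, 344 and 335 CPM in 21-month grey matter, 35.3 and 318 CPM in 4-month white matter, and 205 and 350 CPM in 4-month grey matter. Of 12 genes of vasomotor control, the islet ATP-sensitive channel subunits Kcnj11 and Abcc8 included, 7 were tested and none was called, with medians of 1.06 in white and 1.01 in grey matter for 21 over 4 months, and 0.24 in white matter without the first 4-month library there. Ednra, the endothelin receptor gene of smooth muscle, had 8.75 and 23.8 CPM in 21-month white matter, 22.6 and 22.9 CPM in 21-month grey matter, 0 and 13.5 CPM in 4-month white matter, and 3.14 and 17.2 CPM in 4-month grey matter.

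The genes whose pattern was most like the pericyte sum, by Pearson's r of log2 CPM over 8 libraries and among 10049 genes with a mean of at least 5 CPM, were Itga1 (0.997), S1pr3 (0.996), Zfp652, Ache, Rgs4, Snrk, Rps6ka3 and Itpr2. Those most like the contractile sum were Akap12 (0.997), Dgkb (0.993), Mylk (0.991), Slc38a11, Zic1, Dhdh, Aoc3 and Myl9. Mylk and Myl9 are from the list of other contractile genes, but Zic1 is from that of other pericyte genes, so the sets are not cleanly apart here. Over the 7 libraries other than the first of 4-month white matter, r was 0.989 for Itga1 and 0.977 for S1pr3, and 0.993 for Akap12, 0.986 for Mylk and 0.993 for Myl9. Itga1 was then at rank 2 of the 10049 and S1pr3 at rank 20, while Zfp652 was at rank 67, Ache at 84, Rgs4 at 92, Rps6ka3 at 105 and Itpr2, with an r of 0.94, at 156. The 8 genes most like the contractile sum were at ranks 3 to 52. The libraries share groups and depth, and these values describe the 8 libraries only.

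Markers of other cell types moved with several of these results. The 16 endothelial genes summed to 96.7 and 285 CPM in 21-month white matter, 138 and 135 CPM in 21-month grey matter, 21.4 and 80.3 CPM in 4-month white matter, and 68.9 and 90.9 CPM in 4-month grey matter, with 8 of the 16 at 0 in the first 4-month white matter library. The 2 lowest sums belonged to the same 4-month first libraries in which the mural sums were lowest, and the highest to the second 21-month white matter library. Relative to that sum, the pericyte sum stood at 5.06 and 2.52 for 21-month white matter, 5.36 and 6.42 for 21-month grey matter, 0.339 and 5.22 for 4-month white matter, and 1.81 and 5.6 for 4-month grey matter. The contractile sum stood at 1.94 and 1.92 for 21-month white matter, 1.81 and 2.32 for 21-month grey matter, 0.102 and 1.28 for 4-month white matter, and 0.144 and 3.88 for 4-month grey matter. Set against this endothelial sum, the second 4-month libraries therefore lay within the range of the 21-month libraries for the pericyte genes, and the first 4-month libraries below it. Genes of the endothelial list did not move together. In the first 4-month grey matter library Flt1 had 2.27 CPM, against 38 to 97.8 CPM at 21 months. Pecam1 had 21.6 CPM there, against 7.1 to 19.3 CPM at 21 months. The order given holds for the sum of the 16 genes and not for each gene. The part of endothelial cells in the mural levels was not tested.

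The second 21-month white matter library, highest in Acta2 and Myh11, also held 11870 CPM of 10 choroid plexus and ependymal genes, against 392 CPM in its partner, and 492 CPM of 14 fibroblast genes, against 152 CPM in its partner. Choroid plexus sums were 472 and 366 CPM in 21-month grey matter, 5461 and 7166 CPM in 4-month white matter, and 233 and 30.9 CPM in 4-month grey matter, so that this sum was high in 4-month white matter libraries with low contractile sums. Fibroblast sums were 142 and 133 CPM in 21-month grey matter, 4895 and 321 CPM in 4-month white matter, and 156 and 245 CPM in 4-month grey matter. Of the 4895 CPM, Apod alone made up 4832 CPM, and 7 of the 14 genes were at 0 in that library. Of the 492 CPM, Igf2 alone made up 339 CPM. These 2 sums thus rest mostly on 1 gene each and do not describe the list as a whole. The part of choroid plexus and fibroblast cells in the mural levels was not tested either.

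**Figure D4:**
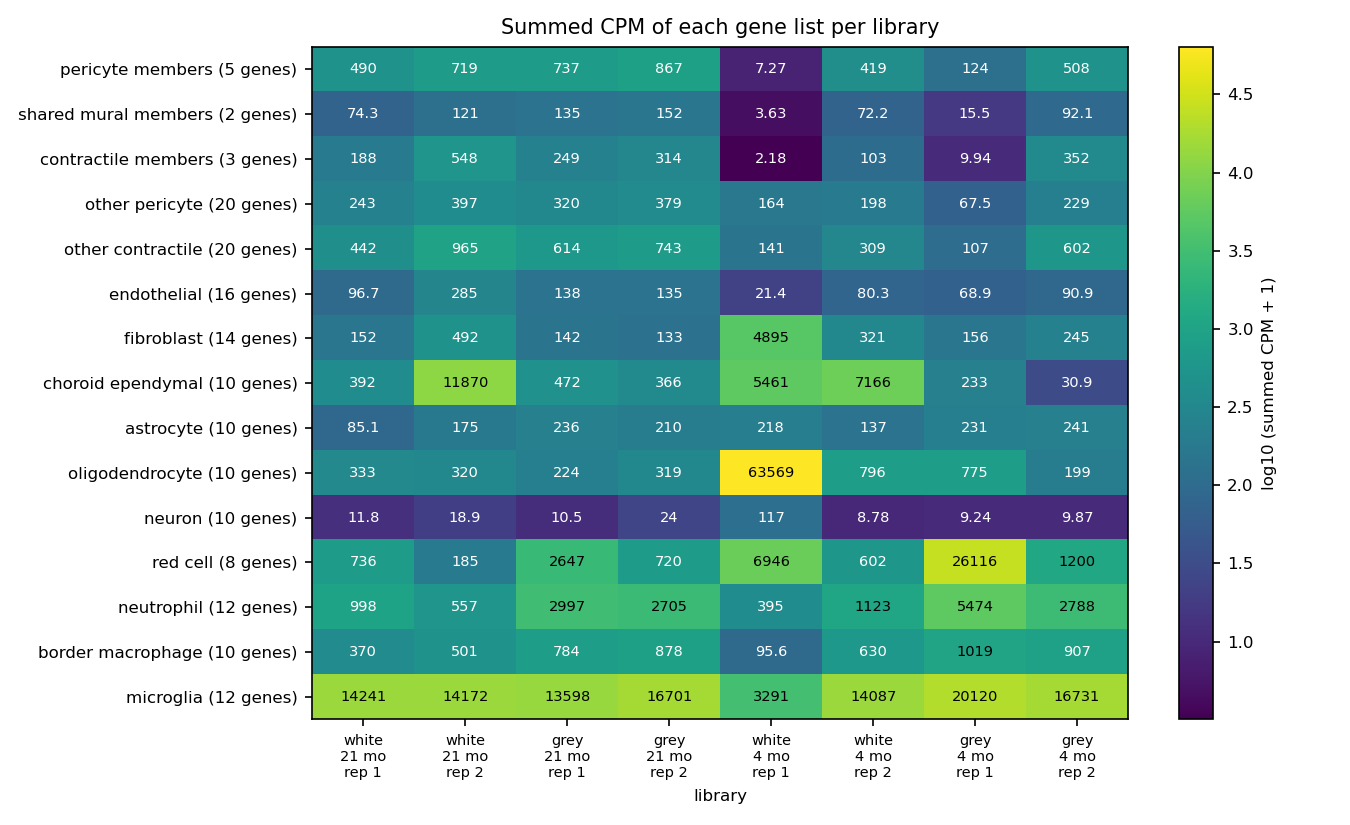
Summed CPM of each gene list (rows, with the number of genes) in each library (columns), coloured by log10 of the sum plus 1 and printed in each cell. The mural and endothelial sums are low in the first library of both 4-month groups, and the oligodendrocyte sum reaches 63569 CPM in the first of 4-month white matter.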

How the data were processed

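Polyadenylated RNA of CD11b-selected cells was sequenced on an Ion Proton, per the labels' protocols. The authors deposited estimated counts per gene; Partek and DESeq2 are named without a role, per the submitters' processing notes, and the aligner, genome build, gene models and strand setting were not given in the sources used here. Values were rounded to whole numbers. The authors also deposited a normalised signal for 18448 genes, which equals the count times 1 factor per library within 1e-06, and was used in 1 alternative. Totals per library ran from 3273258 to 6315782 counts, and genes of few counts are the least precise.

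edgeR 4.0.16 in R 4.3.3 was used with filterByExpr, TMM scaling and a robust quasi-likelihood fit of 4 group means, which over the 8 libraries leaves 4 residual degrees of freedom. The call rule was an adjusted p (Benjamini-Hochberg, all genes tested) under 0.05. SEs come from the F statistic. With 2 libraries a side, an exact two-sided permutation test cannot go below 0.333, and none was used. The 10 members and all lists were chosen with earlier results of these data known. Named genes are all members, up to 4 members of a list with the highest mean CPM, called list members, and the 8 genes most like each sum; predicted gene models were left out of the last. Alternatives were DESeq2 1.42.0, limma 3.58.1 (voom with quality weights, and on the deposited normalised signal), RLE or no scaling, no filter, leaving out the 2 most abundant transcripts, a replicate block, only the groups compared, and leaving out each library. Scripts were tested on simulated data. Sequences are from RefSeq, in which 6 of the 10 genes were used.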

Additional observations from a re-analysis of the deposited data

How the results depend on the processing

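With genes of low count filtered out, no member was called in the 5 comparisons with all 8 libraries by edgeR, DESeq2 or limma, and 2 libraries a group limit what can be called; unscaled library sizes moved the median of all genes to between -0.18 and 0.29 (log2), with the same signs of the members. All 200 member fold changes under other scaling, without the 2 most abundant transcripts or in DESeq2 kept direction and call. So did the 40 member fold changes from fits to only the groups compared. Of the 51810 genes in the table, 18945 were at 0 in all libraries and could not be tested under any setting. Without a filter, the genes called were 147 and 1113 in white against grey matter at 21 and 4 months. Between 21 and 4 months they were 963 and 17 in white and grey matter, and 470 in the difference between regions. That fit called 1 member at 4 months (Myh11, -2, adjusted p = 0.00715 by edgeR). In white matter aging it called 3 (Notch3 1.72, Acta2 2.67 and Myh11 2.93). Every gene with a count in any library was tested in that fit. The share of all genes it called was not worked out, so its calls are not read as a result about the members. DESeq2 called 54 and 508 genes in white against grey matter at 21 and 4 months, 363 in white matter aging and 17 in the difference between regions. limma-voom called 113 and the fit of only the 21-month groups 232 at 21 months. The cause of these gaps between tools was not tested.

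The labels do not say that equal replicate numbers pair libraries, and deviations of equal numbers correlated at 0.056, 0.415, -0.025 and -0.098. A replicate block called none of the members and turned Acta2 to -0.09 and Myh11 to -0.22 at 21 months and Vtn to 0.51 in the difference between regions. In that difference limma-voom turned Pdgfrb to 1.64, Notch3 to -0.12, Vtn to 1.45 and Abcc9 to 0.73, and limma on the deposited values turned Pdgfrb to 2, Vtn to 1.71 and Abcc9 to 1.01.

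With 1 library left out at a time, where a lone library is assumed to vary like the others, 423 of 480 member fold changes were unchanged in direction and call, 37 reversed and 20 became called. The highest count at 21 months came without the first 4-month white matter library; the other highest counts came where that library stood alone for its group, and fold changes against its counts of 0 are no measure of size. Genes called were 0 to 19 in white against grey matter at 21 months and 0 to 4222 at 4 months, 0 to 4491 in white matter aging, 0 to 2422 in the difference between regions and 0 to 3211 in averaged aging. Members called were 0 to 6 at 4 months, 0 to 6 in white matter aging, 0 to 2 in the difference and 0 to 7 in averaged aging. White over grey matter at 4 months ran from -9.86 to 1.06 for Pdgfrb, -2.94 to 1.74 for Notch3, -5.94 to 1.12 for Rgs5, -5.24 to 0.59 for Vtn, -4.37 to 0.42 for Kcnj8, -4.81 to 1.06 for Abcc9, -5.10 to 2.23 for Acta2 and -11.81 to 3.74 for Myh11. At 21 months it ran from -0.57 to 0.88 for Acta2 and -0.59 to 1.03 for Myh11. Aging in grey matter ran from -0.17 to 4.55 for Acta2 and -0.48 to 6.22 for Myh11. The difference between regions ran from -1.70 to 9.22 for Pdgfrb, -2.21 to 2.47 for Notch3, -1.49 to 5.56 for Rgs5, -1.01 to 4.82 for Vtn, -0.79 to 4.00 for Kcnj8, -1.60 to 4.26 for Abcc9, -1.88 to 5.45 for Acta2, -3.28 to 12.27 for Myh11 and -1.19 to 1.80 for the log2 ratio of contractile to pericyte sums.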
